A study of Mus musculus with 16 samples.

Results

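The mouse mitochondrial genome carries 37 genes, and each of them was listed among the 54347 genes of the deposited count table. They were 13 protein genes, 2 ribosomal RNA (rRNA) genes and 22 transfer RNA (tRNA) genes. Members were defined as genes whose mouse symbol starts with mt-. The symbol column of the table named the 13 protein genes without that prefix (ND1, COX1 and so on) and left the rRNAs and tRNAs unnamed, so the members were found by matching the Ensembl gene identifiers of the table to their current mouse symbols. All 37 matched and all lie on chromosome M of the GRCm38 build.

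The counts came from wt1-SAM cells, a mouse line of immortalized brown preadipocytes (1 line) with CRISPRa SAM built in, a Cas9 without cutting activity that recruits transcriptional activators to the site named by a single guide RNA (sgRNA). All cells were differentiated, received 250 ng of plasmid by reverse transfection on day 4 and were harvested on day 7. The plasmid was the empty sgRNA vector or pSgRNA-MS2-2+7, which stands for vectors with guides against the long noncoding RNA gene *Gm15551*, and cells were either left as controls or given the β-adrenergic agonist isoproterenol at 1 µM for 24 h. The 4 groups are called empty vector control, empty vector stimulated, sgRNA control and sgRNA stimulated cells here, and each had 4 libraries, numbered replicates 3, 4, 5 and 6, which gave 16 libraries of polyadenylated RNA. The labels do not state whether the replicates came from separate cultures, so p-values measure only the spread between these libraries.

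Brown adipocytes are dense in mitochondria, where the respiratory chain pumps protons and the uncoupling protein UCP1 can turn the gradient into heat. Most subunits of the chain are made from nuclear genes, but core subunits of complexes I, III and IV and of the ATP synthase are encoded in the mitochondrial DNA, together with the rRNAs and tRNAs that translate them. Each strand of this DNA is transcribed into long precursors. The tRNAs lie between many of the other genes and are cut out, which frees the mRNAs and rRNAs, and short poly(A) tails are then added to most mRNAs. In some of these mRNAs the tail completes the stop codon. Ribosomal RNAs receive only very short tails and mature tRNAs none, so a library made by poly(A) selection samples the classes unequally.

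The sequences below, read from the reference genome on the strand of each gene, show features that bear on the counts. The last 30 bases of *mt-Co3*, *mt-Nd4* and *mt-Cytb* end in a T past the last full codon, shown as a capital. They are set beside *mt-Co2*, whose complete stop codon is in capitals. These 3 were the only protein genes of the 13 with such an incomplete end.
*mt-Co3*, chrM:9361-9390, plus strand: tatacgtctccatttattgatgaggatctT
*mt-Nd4*, chrM:11515-11544, plus strand: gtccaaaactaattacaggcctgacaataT
*mt-Cytb*, chrM:15259-15288, plus strand: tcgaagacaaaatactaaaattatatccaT
*mt-Co2*, chrM:7667-7696, plus strand: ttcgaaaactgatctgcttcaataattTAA

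*mt-Tp*, the proline tRNA gene that took most of the tRNA counts, is printed whole with its neighbour *mt-Tt*, the threonine tRNA gene on the opposite strand. *mt-Tt* begins at the base after the end of *mt-Cytb*, and *mt-Tp* lies directly beyond it.
*mt-Tt*, chrM:15289-15355, plus strand: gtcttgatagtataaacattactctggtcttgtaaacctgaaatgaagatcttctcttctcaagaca
*mt-Tp*, chrM:15356-15422, minus strand: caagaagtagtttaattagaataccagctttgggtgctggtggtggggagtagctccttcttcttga

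The first 30 bases of *mt-Nd3*, a complex I subunit gene, are printed with those of *Gm28438*, a nuclear pseudogene on chromosome 1. The capital marks T3C, the only substitution over the 345 bases that could be compared, with positions counted from 1 at the first base of *mt-Nd3*. Reads within these bases that do not cover position 3 cannot tell the gene from its copy.
*mt-Nd3*, chrM:9459-9488, plus strand: atTaacctgtacactgttatcttcattaat
*Gm28438*, chr1:24613090-24613119, minus strand: atCaacctgtacactgttatcttcattaat

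Some members also overlap each other. *mt-Atp8* and *mt-Atp6* share 43 bases, *mt-Nd4l* and *mt-Nd4* share 7, and *mt-Nd5* and *mt-Nd6* share 14 on opposite strands. The minus strand holds 9 members, which are *mt-Nd6* and 8 tRNA genes. Whether the counting used the strand of the reads was not stated, so a member's counts cannot be told apart from reads of the opposite precursor at the same place.

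Total estimated counts per library ranged from 9053521 to 16546187. *CT010467.1*, a nuclear gene annotated as cytosolic rRNA, took 11.7% to 51.8% of them, and for this reason shares and levels are given relative to all counts other than those of *CT010467.1*, in percent or as counts per 1000000 such counts (CPM). In 3 libraries it took over 40%, namely 41.6% in empty vector stimulated replicate 3, 47.3% in empty vector control replicate 5 and 51.8% in empty vector stimulated replicate 5, against 11.7% to 31.7% in the 13 others. Values without these 3 libraries are given beside many of the results. They set empty vector libraries without any replicate 5 against sgRNA libraries of all 4 replicate numbers. The adipocyte markers *Adipoq*, *Pparg*, *Fabp4*, *Plin1*, *Cebpa* and *Lipe* summed to 13592 to 31094 CPM, whereas 4 endothelial markers summed to 1.9 to 4.5 CPM. In bulk samples such as these, fewer cells of a type and less RNA per cell cannot be told apart.

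Of the 13 mitochondrial mRNAs, 9 were among the 20 genes with the highest counts in each of the 16 libraries, and *mt-Co1*, the catalytic subunit of complex IV, ranked between 2 and 4. The share of the mRNAs in the counts was 10.8%, 9.40%, 11.3% and 10.8% in empty vector control replicates 3, 4, 5 and 6. In empty vector stimulated cells it was 14.0%, 10.3%, 9.10% and 9.64%. In sgRNA control cells it was 10.3%, 10.1%, 13.2% and 13.1%, and in sgRNA stimulated cells 12.4%, 11.8%, 12.5% and 11%. The group means were 10.6% ± 0.83, 10.8% ± 2.23, 11.7% ± 1.69 and 11.9% ± 0.68 (SD, n = 4 each), so the means lay within the spread of the libraries and the ranges of all groups overlapped. Between libraries of the same replicate number, the share was higher after isoproterenol in 4 of 8 pairs and higher with sgRNA than with the empty vector in 6 of 8. Without the 3 libraries rich in *CT010467.1*, the empty vector libraries ran from 9.40% to 10.8% with a median of 10.3%, and the 8 sgRNA libraries from 10.1% to 13.2% with a median of 12.1%. Only the sgRNA side then holds replicate 5, at 13.2% and 12.5%, so these medians are not balanced by replicate number.

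The 2 mitochondrial rRNAs varied far more. Their share was 1.39%, 1.13%, 5.07% and 2.83% in empty vector control replicates 3, 4, 5 and 6. It was 5.50%, 1.20%, 5.10% and 2.49% in empty vector stimulated cells. In sgRNA control cells it stood at 1.38%, 1.24%, 1.93% and 1.81%, and in sgRNA stimulated cells at 1.65%, 0.904%, 1.82% and 2.65%. The 3 libraries above 5% were the 3 with over 40% of counts on *CT010467.1*, and all of these were empty vector libraries. The means were 2.60% ± 1.81, 3.57% ± 2.07, 1.59% ± 0.33 and 1.76% ± 0.72 (SD, n = 4 each). The rRNA share was lower with sgRNA in 6 of 8 same-numbered pairs and higher after isoproterenol in 5 of 8. Without the 3 libraries, the empty vector libraries ranged from 1.13% to 2.83% with a median of 1.39%, and the sgRNA libraries from 0.904% to 2.65% with a median of 1.73%.

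The 22 tRNAs together made up 83.2 to 175 CPM. Both ends were libraries rich in *CT010467.1*, and the 13 others ran from 97.5 to 156 CPM. Their means were 109 ± 22.2 in empty vector control, 124 ± 41.9 in empty vector stimulated, 111 ± 9.50 in sgRNA control and 132 ± 17 in sgRNA stimulated cells (SD, n = 4 each). Isoproterenol went with a higher value in 6 of 8 same-numbered pairs, with differences from -4.34 to 43.1 CPM, and the group ranges overlapped.

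**Figure D1:**
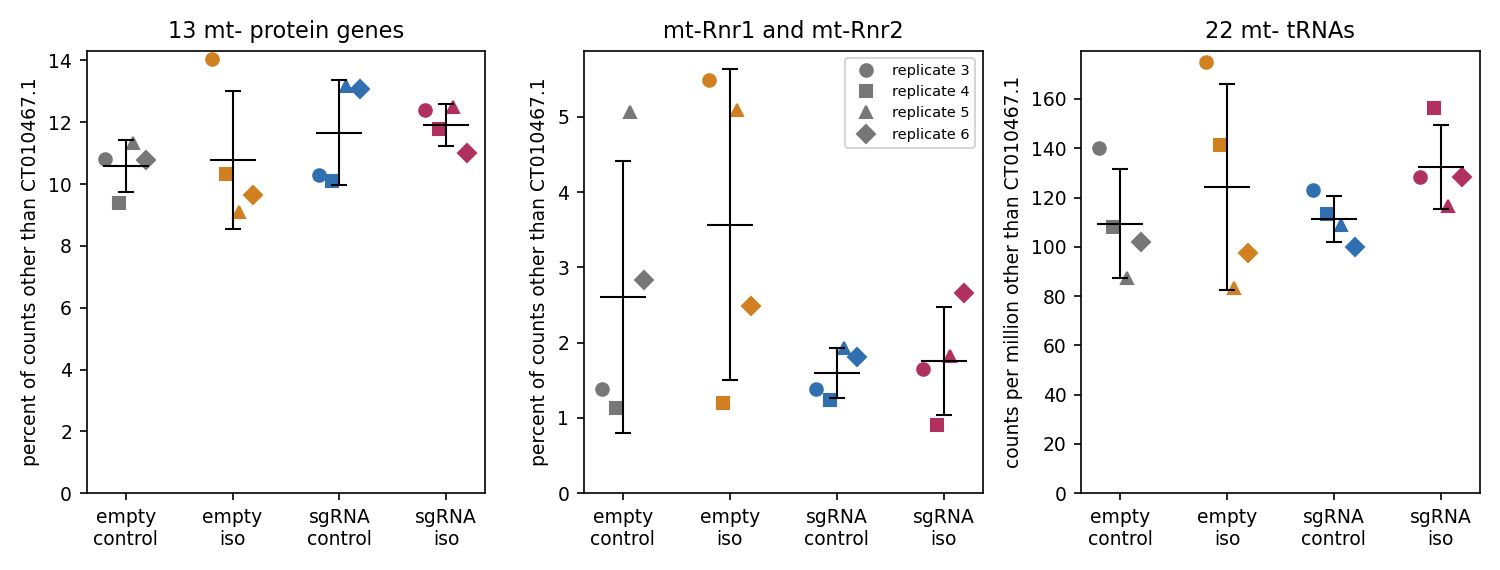
Shares of the 3 classes of mitochondrial transcripts in each library, as percent (protein genes, rRNAs) or CPM (tRNAs), both of all counts other than *CT010467.1*. Points are libraries with a symbol for each replicate number, and bars show the mean and SD of 4 libraries. The protein gene share stays between 9.10% and 14.0%, while 3 empty vector libraries lie above 5% for the rRNAs.

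Levels of different genes were compared per length, as CPM per kilobase of gene. By the median of 16 libraries the order of the mRNAs started with *mt-Co2* at 20707 and *mt-Co1* at 20246, both complex IV subunits, followed by *mt-Atp6*, an ATP synthase subunit, at 14101. Then came *mt-Co3* of complex IV at 10825, *mt-Cytb*, the cytochrome b of complex III, at 10428, and *mt-Nd1* of complex I at 10219. The other complex I genes were lower, with *mt-Nd4* at 6254, *mt-Nd2* at 5946, *mt-Nd4l* at 4390, *mt-Nd5* at 3771 and *mt-Nd6* at 2385. *mt-Atp8* was listed at 2009 and *mt-Nd3* at 566.

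Most neighbours in this order overlapped. *mt-Co2* was above *mt-Co1* in 13 of 16 libraries, *mt-Co3* above *mt-Cytb* in 7 and *mt-Cytb* above *mt-Nd1* in 8, so the order of the latter 3 is not set by these data. In 6 of the 12 neighbouring pairs the higher gene was higher in all 16 libraries. Only the last pair had separate ranges, 1581 to 3435 for *mt-Atp8* and 390 to 871 for *mt-Nd3*. Within the mRNAs the highest library stood 1.52 times (*mt-Cytb*) to 2.24 times (*mt-Nd3*) above the lowest.

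By complex, the 3 complex IV genes held 42.9% to 52.1% of the mitochondrial mRNA counts, with a median of 48.5%. The 7 complex I genes held 27.8% to 35.9%, *mt-Cytb* 10.3% to 12.2% and the 2 ATP synthase genes 7.48% to 10.0%. *mt-Co1* alone held 21.4% to 31.8%, and 2 of the 3 libraries rich in *CT010467.1* were below all 13 others, at 21.4% and 24.6%, while the third had 26.7%. A share of counts grows with gene length, so these shares are not numbers of molecules.

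**Figure D2:**
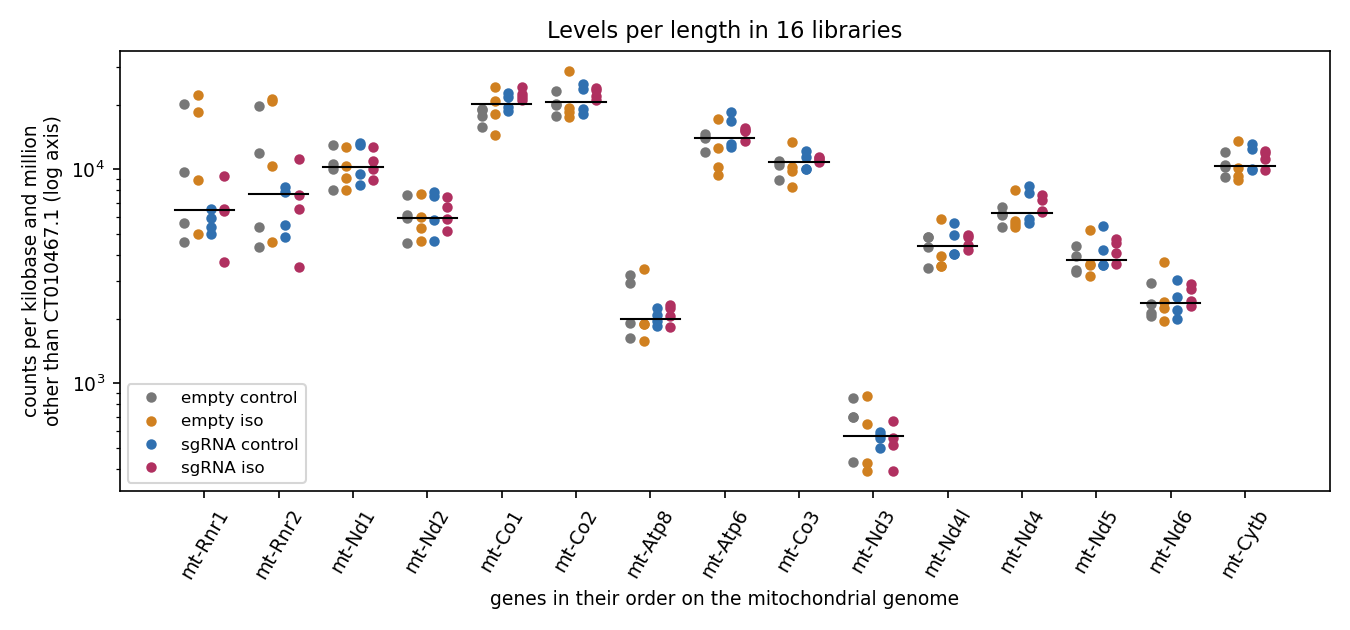
CPM per kilobase of gene, on a log axis, for the 13 protein genes and 2 rRNAs in their order on the mitochondrial genome. Each point is a library coloured by group and the line is the median of 16 libraries. *mt-Co2* and *mt-Co1* have the highest medians at 20707 and 20246, *mt-Nd3* lies lowest at 566, and the rRNAs spread most widely.

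Per length, *mt-Rnr2*, the large-subunit (16S) rRNA, had a median of 7702 with a range of 3488 to 21358. *mt-Rnr1*, the small-subunit (12S) rRNA, had a median of 6477 with a range of 3691 to 22182. The highest library was 6.12 and 6.01 times the lowest. In the 3 libraries rich in *CT010467.1* there were 39.2 to 56.0 mitochondrial rRNA counts for every 100 mitochondrial mRNA counts, against 7.68 to 26.3 in the 13 others. Relative to *CT010467.1* itself the difference was gone, with 47.5 to 77.0 mitochondrial rRNA counts per 1000 *CT010467.1* counts in the 3 and 42.3 to 76.3 in the 13.

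Of 8 nuclear genes for RNAs without poly(A) tails listed besides *CT010467.1*, 4 had more than 10 counts in any library, namely *Rn7s1*, *Rn7sk*, *Rmrp* and *Rpph1*. Each of these 4 was higher in the 3 libraries than in all 13 others, for example *Rn7sk* with 2036 to 3443 against 211 to 1009 CPM. The share of all genes with such a separation is not given, so these 4 are not set against a background. The 8 genes summed to 9648 to 26326 CPM in the 3 libraries and to 2118 to 4829 in the 13 others. The part of poly(A) selection in the rRNA levels was not tested.

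**Figure D3:**
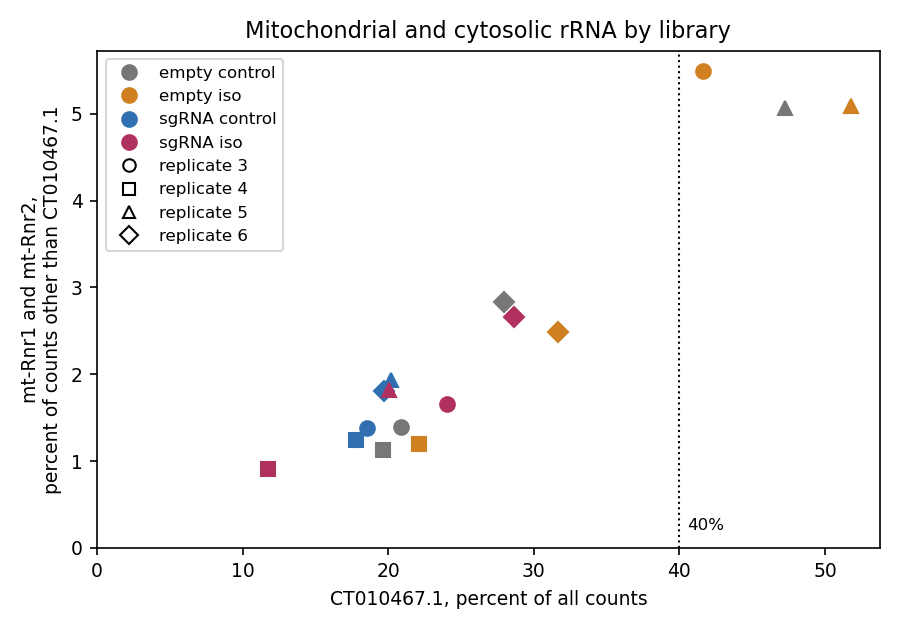
Share of the 2 mitochondrial rRNAs among counts other than *CT010467.1* (percent, vertical) against the share of *CT010467.1* in all counts (percent, horizontal), with a point for each of the 16 libraries, coloured by group and with a symbol for each replicate number. The 3 libraries to the right of the line at 40% are those above 5% on the vertical axis.

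The tRNA counts were small and uneven. *mt-Tp* received 287 to 1443 counts per library, whereas the highest count of any other tRNA was 132, for *mt-Tt*. *mt-Tp* therefore made up 58.0% to 71.2% of all tRNA counts. Next by median count were *mt-Tt* with 67.5, *mt-Th*, the histidine tRNA, with 52.5, *mt-Ts1*, a serine tRNA, with 43 and *mt-Tl2*, a leucine tRNA, with 29. At the low end, 4 tRNAs had fewer than 30 counts over all 16 libraries, and *mt-Td*, the aspartate tRNA, had 6. No tRNA was at 0 in all libraries. These genes are 59 to 75 bases long, shorter than a usual library fragment, so their counts are not read as levels of mature tRNA.

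Near-identical copies of mitochondrial genes took part of the counts. A block of 7 pseudogenes on chromosome 1, between positions 24611535 and 24616197 of GRCm38, was over 99% identical to 7 mitochondrial protein genes. *Gm28438* received 73.5% to 84.9% of the counts it shared with *mt-Nd3*, with a median of 78.9%. *Gm10925*, which had 0 substitutions over 678 compared bases of *mt-Atp6*, received 6.82% to 36.9%, with a median of 20.2%. *Gm10222*, the copy of *mt-Nd4l*, and *Gm28661*, that of *mt-Co2*, took at most 2.60% and 1.88%, and the other copies at most 0.831%.

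With the copies added, the median level of *mt-Nd3* per kilobase rose from 566 to 2740 and that of *mt-Atp6* from 14101 to 17248. The place of *mt-Nd3* at the bottom of the order, and the level of *mt-Atp6*, therefore rest on how the reads were divided. Fold changes and replicate spreads of both genes below use only the counts assigned to them, so they can also reflect that division. All copies together amounted to 0.148% to 0.508% of the counts other than *CT010467.1*, so the class share changed little, for example from 10.6% to 10.9% in empty vector control cells.

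**Figure D4:**
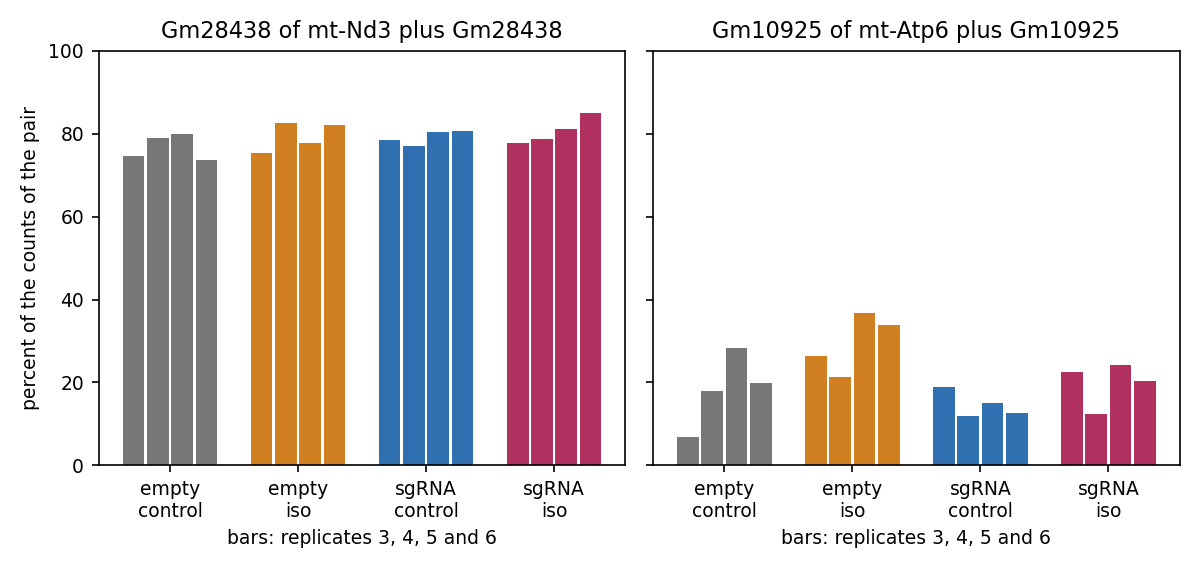
Percent of the counts of a mitochondrial gene and its nuclear copy that were assigned to the copy, with a bar for each library in the order of replicates 3, 4, 5 and 6 in each group. *Gm28438* takes 73.5% to 84.9% of its pair in every group, and *Gm10925* between 6.82% and 36.9%.

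To measure how β-adrenergic stimulation changes these transcripts, isoproterenol was compared with control over both plasmids. A gene was called at an adjusted p under 0.05 in edgeR's quasi-likelihood test (Benjamini-Hochberg) and an absolute log2 fold change over 0.5. Of the 37 members, 28 passed the filter on low counts: 13 protein genes, both rRNAs and 13 tRNAs. None of the 28 was called by edgeR or by DESeq2, while 349 of the 13150 genes tested were called in edgeR (2.65%) and 590 had an adjusted p under 0.05 at any size (4.49%). The unadjusted p was under 0.05 for 2 of the 28 members in edgeR and 1 in DESeq2, against 17.7% of all genes in edgeR. Taken over both plasmids, sums of cell type markers overlapped in range between treatments. Within each plasmid the 6 brown adipocyte markers did not overlap. In empty vector cells they summed to 69.8 to 89.2 CPM in control and 90.2 to 148 in stimulated libraries. In sgRNA cells they summed to 78.8 to 111 and 113 to 192 CPM. *Ppargc1a* (median 66.8 CPM over all libraries) and *Ebf2* (20.3) made up most of these sums, beside 3.76 for *Cidea* and 3.65 for *Ucp1*. The share of all genes with such a separation is not given. The 4 macrophage or leukocyte markers summed to 8.90 to 19.6 CPM in control and 18.2 to 31.4 in stimulated libraries, nearly all of it *Cd68*, while *Ptprc* and *Adgre1* had at most 2 counts and 1 count in any library. The 5 preadipocyte markers summed to 10.5 to 107 CPM in control and 20.7 to 140 in stimulated libraries, and the 6 adipocyte markers to 18439 to 31094 and 13592 to 25858. Their part in the results was not tested. Stimulation itself was visible in *Ucp1*, the uncoupling protein gene, with a log2 change of 4.03 (adjusted p = 7.4e-06).

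Of the mRNAs, *mt-Co1* had the largest estimate. Its 8 control libraries ranged from 24286 to 35039 CPM with a median of 29545, and its 8 stimulated libraries from 22382 to 37549 with a median of 33098. These ranges overlapped, and 4 of 8 same-numbered pairs were higher. The log2 fold change was 0.15 (SE 0.13, 95% interval -0.13 to 0.43). The 13 mRNA estimates ran from -0.09 for *mt-Nd3* to 0.15 and had a median of 0.02, close to the median of all genes at 0.005. Their 95% intervals reached from -0.52 to 0.50, so a change of more than 1.5-fold is outside the interval of every mRNA in the fit of 16 libraries. When the 3 libraries rich in *CT010467.1* were left out, the estimates ran from -0.31 to 0.09, with a median of -0.04. In that fit no member was called, against 1.87% of all genes, and none had an unadjusted p under 0.05, against 14.3%.

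The 2 tRNAs with an unadjusted p under 0.05 were *mt-Tt* and *mt-Tl2*. *mt-Tt* stood at 7.06, 6.55, 3.70 and 4.29 CPM in empty vector control replicates 3, 4, 5 and 6 and at 9.77, 8.14, 5.42 and 6.88 in the stimulated ones. In sgRNA cells it stood at 6.58, 7.62, 7.76 and 5.23 in control and at 7.25, 10.2, 7.47 and 7.17 in stimulated libraries. It was higher after stimulation in 7 of 8 same-numbered pairs, but the ranges overlapped. Its log2 fold change was 0.39 (SE 0.18, 95% interval 0.01 to 0.76, adjusted p = 0.27), and that of *mt-Tl2* was 0.37 (SE 0.17, 95% interval 0.01 to 0.73, adjusted p = 0.27). Without the 3 libraries rich in *CT010467.1*, *mt-Tt* had 0.28 (SE 0.18, adjusted p = 0.53).

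Of the 13 tested tRNAs, 10 had a positive and 3 a negative estimate, with a median of 0.25. Without the 3 libraries rich in *CT010467.1* the tRNA estimates ran from -0.30 for *mt-Te* to 0.31 for *mt-Tl2*. In that fit *mt-Tc* and *mt-Ts1* turned negative, at -0.24 (SE 0.31) and -0.08 (SE 0.21). The largest in the fit of 16 libraries, 0.60 for the glutamine tRNA *mt-Tq* (SE 0.48), rests on 2 to 27 counts per library. *mt-Tp* had 0.29 (SE 0.19), with 48.6 to 123 CPM in stimulated libraries and 56.2 to 95.6 in control libraries. Without the 3 libraries *mt-Tq* had 0.26 (SE 0.56) and *mt-Tp* 0.18 (SE 0.16).

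Both rRNAs had positive estimates with wide intervals. The log2 fold change was 0.34 for *mt-Rnr1* (SE 0.35, 95% interval -0.41 to 1.09) and 0.32 for *mt-Rnr2* (SE 0.38, 95% interval -0.48 to 1.11). When the share of *CT010467.1* entered the fit as a covariate with the replicate number as a block, both estimates were -0.01. Without the 3 libraries rich in *CT010467.1* they were 0.12 and 0.08 (SE 0.22 and 0.30).

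With the replicate number alone as a block, 749 of all genes were called (5.7%) and again none of the 28 members. The unadjusted p was then under 0.05 for *mt-Tq*, *mt-Tl2*, *mt-Tt* and *mt-Tp*, against 33.5% of all genes, and *mt-Tt* had the lowest adjusted p of these (0.052). With the *CT010467.1* covariate added to the block the adjusted p of *mt-Tt* was 0.037 at a log2 fold change of 0.45, short of the fold bound.

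**Figure D5:**
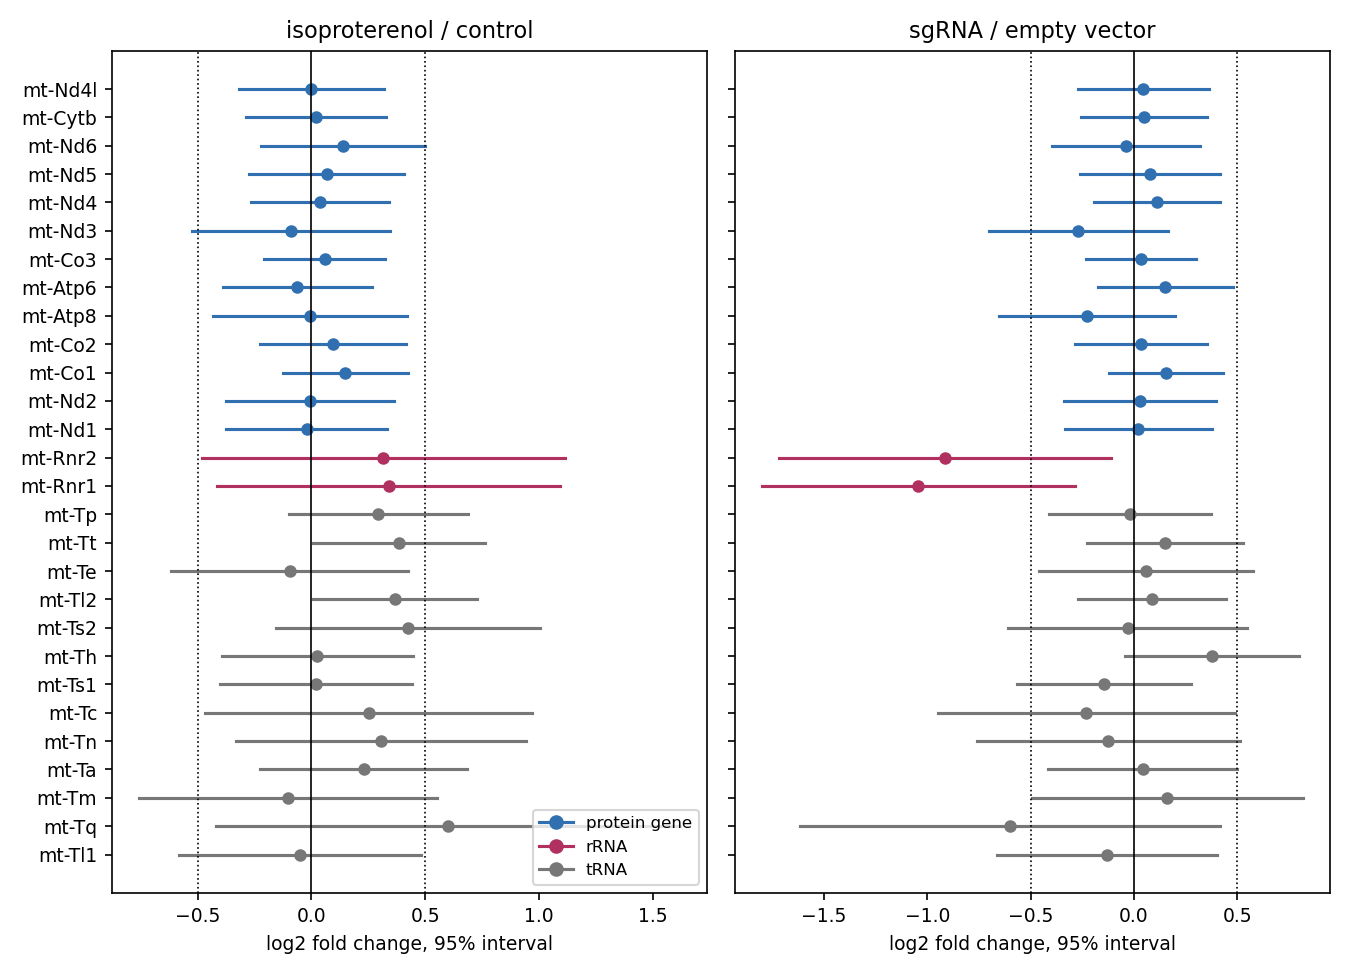
Log2 fold changes of the 28 tested members with 95% intervals (lines), for isoproterenol against control (left) and sgRNA against empty vector (right), each averaged over the other factor in 16 libraries. Dotted lines mark the bound of 0.5. The 13 mRNAs lie between -0.09 and 0.15 on the left, and *mt-Rnr1* and *mt-Rnr2* lie at -1.04 and -0.91 on the right.

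To measure the effect of the guides, sgRNA cells were compared with empty vector cells over both treatments. The guide target *Gm15551* had 3 to 18 counts in empty vector control and 19 to 56 in sgRNA control libraries, and 0 to 5 in empty vector stimulated and 13 to 26 in sgRNA stimulated libraries, so the libraries separated by plasmid within each treatment. None of the 28 members was called in edgeR or DESeq2, and none of all 13150 genes in edgeR (0%). In both tools the unadjusted p was under 0.05 for 2 members, against 3.32% of all genes in edgeR. These were the rRNAs.

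*mt-Rnr1* stood at 5371, 4388, 19351 and 9336 CPM in empty vector control replicates 3, 4, 5 and 6 and at 21183, 4763, 17819.9 and 8505 in the stimulated ones. With sgRNA it stood at 5140.4, 4782, 6254 and 5680.2 in control and at 6137, 3525, 6234 and 8918 in stimulated libraries. The medians were 8920.2 with the empty vector and 5909 with sgRNA. The 8 ranges overlapped, and sgRNA was higher in 2 of 8 same-numbered pairs. The log2 fold change was -1.04 (SE 0.36, 95% interval -1.80 to -0.28, unadjusted p = 0.010, adjusted p = 1.0).

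*mt-Rnr2* behaved alike, with 6882 to 33788 CPM and a median of 17689 with the empty vector, and 5517 to 17629 and a median of 11179.5 with sgRNA. Its log2 fold change was -0.91 (SE 0.38, 95% interval -1.72 to -0.11, unadjusted p = 0.028, adjusted p = 1.0). Without the 3 libraries rich in *CT010467.1*, the estimates were -0.12 for *mt-Rnr1* (SE 0.22) and -0.05 for *mt-Rnr2*. The nuclear RNAs without poly(A) tails moved the same way. All 5 tested genes were lower in sgRNA cells at an unadjusted p under 0.05, against 3.32% of all genes at that p in either direction. Their median log2 fold change was -1.30, and 0 of them had an adjusted p under 0.05. Among them was *CT010467.1*, by whose share the 3 libraries, all with the empty vector, were picked. Without the 3 libraries these 5 estimates ran from -0.44 to -0.08 with a median of -0.35, and none had an unadjusted p under 0.05. *CT010467.1* itself took a smaller share with sgRNA in all 8 same-numbered pairs.

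The mRNAs lay close together under sgRNA, from -0.27 for *mt-Nd3* to 0.15 for *mt-Co1*, with a median of 0.03 against -0.01 for all genes. These values rest on the 3 libraries rich in *CT010467.1*. Without them all 13 mRNA estimates were positive, from 0.09 to 0.31 with a median of 0.25, against a median of 0.00087 for all genes. That fit has no replicate block and no empty vector library of replicate 5, so plasmid and replicate number are not balanced in it. Most of these mRNAs are cut from a shared precursor, so their signs are not 13 separate observations. In that fit 4 of 29 members had an unadjusted p under 0.05, against 3.79% of all genes, namely *mt-Atp6* at 0.30, *mt-Nd4* at 0.29, *mt-Nd5* at 0.31 and *mt-Co2* at 0.24 (log2, adjusted p = 1.0 for each), and no member was called, as against 1 of all genes (0.00719%). *mt-Co1* ranged from 22382 to 37549 CPM with the empty vector and from 28896 to 37379 with sgRNA and was higher with sgRNA in 6 of 8 same-numbered pairs (95% interval of the log2 fold change -0.12 to 0.43). In the fit of 16 libraries *mt-Th* had the largest positive estimate, 0.38 (SE 0.20, 95% interval -0.04 to 0.80). With the replicate block, *mt-Th* had an unadjusted p of 0.040 in edgeR (adjusted p = 0.41). Without the 3 libraries *mt-Th* was at 0.16 (SE 0.20), and *mt-Ti* was highest at 0.39 (SE 0.48). With the replicate number as a block, 35 of all genes (0.266%) and none of the 28 members were called, and the estimates of *mt-Rnr1* and *mt-Rnr2* were -0.85 (adjusted p = 0.20) and -0.75 (adjusted p = 0.24).

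Measured against the total of mitochondrial mRNA counts instead of all genes, no mRNA changed its proportion past the test. Under isoproterenol the estimates ran from -0.17 for *mt-Nd3* to 0.08 for *mt-Co1*, and under sgRNA from -0.32 for *mt-Nd3* (SE 0.15, unadjusted p = 0.045, adjusted p = 0.92) to 0.07 for *mt-Atp6*.

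Within each plasmid, isoproterenol called 109 genes in empty vector cells (0.829%) and 92 in sgRNA cells (0.7%), none of them a member in edgeR or DESeq2. In these fits *mt-Tl2* was the only member with an unadjusted p under 0.05, in empty vector cells, where its estimate was 0.57 (SE 0.24, adjusted p = 0.42). When the 3 libraries rich in *CT010467.1*, all of them empty vector, were left out, 34 genes were called in empty vector cells (0.244%) and 94 in sgRNA cells (0.676%), with no member. *mt-Tl2* was then at 0.46 (SE 0.30, adjusted p = 0.92), and *mt-Nd3* was the only member with an unadjusted p under 0.05 in either comparison, at -0.61 in empty vector cells (SE 0.24, adjusted p = 0.64). This estimate leaves out the counts assigned to the copy *Gm28438*. With them, the empty vector libraries of this fit stood at 954, 711 and 919 CPM in control and at 773 and 834 in stimulated cells. With the replicate number as a block, 588 genes (4.47%) and 513 genes (3.9%) were called, again with no member. The unadjusted p was then under 0.05 for *mt-Tl2* and *mt-Tt* in empty vector cells, against 23.7% of all genes, and for *mt-Tq* and *mt-Tp* in sgRNA cells, against 21.7%. Within each treatment, *mt-Rnr1* had a log2 fold change of -1.18 with sgRNA in stimulated cells (SE 0.51, unadjusted p = 0.034, adjusted p = 1.0) and of -0.91 in control cells (SE 0.50). These were -0.03 (SE 0.33) and -0.21 (SE 0.29) without the 3 libraries. The difference of these effects, tested as an interaction, called 0% of all genes and no member, and its interval for *mt-Rnr1* reached from -1.77 to 1.24.

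Each group holds the same 4 replicate numbers, which allows the members to be compared between numbers. When the numbers were tested jointly in edgeR with the group in the fit, 10 of 28 members had an adjusted p under 0.05, which is 35.7% against 54.7% of all genes. Leaving out the 3 libraries rich in *CT010467.1* gave 9 of 29, against 48.7% of all genes. Leaving out replicate 6 gave 8 of 29, against 29.1% of all genes. The 10 members were both rRNAs, 6 of 13 mRNAs and 2 of 13 tRNAs. The median spread between the highest and lowest number was 0.47 on the log2 scale for the mRNAs, 1.54 for the rRNAs and 0.66 for the tRNAs, beside 0.45 for all genes.

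For *mt-Rnr2* the spread was 1.66 (adjusted p = 0.0080) and for *mt-Rnr1* 1.42 (adjusted p = 0.029), in both from replicate 4, the lowest, to replicate 5, the highest. The place of replicate 5 rests on 2 of the 3 libraries rich in *CT010467.1*. When the 3 were left out, replicate 4 was again the lowest and replicate 6 the highest, with spreads of 1.19 (adjusted p = 7.3e-05) and 0.82 (adjusted p = 0.0014). The rRNA share was 0.904% to 1.24% in the 4 libraries of replicate 4 and 1.82% to 5.10% in those of replicate 5. The ratio of *mt-Rnr2* to *mt-Rnr1* counts was 1.51 to 1.69 in replicates 3 and 4 and 1.62 to 2.18 in replicates 5 and 6.

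The mRNAs that passed were 5 complex I genes and *mt-Atp8* of the ATP synthase. The spread was 0.72 for *mt-Nd3* (adjusted p = 0.012), 0.71 for *mt-Atp8* (adjusted p = 0.025), 0.69 for *mt-Nd2* (adjusted p = 0.0056), 0.64 for *mt-Nd1* (adjusted p = 0.011), 0.49 for *mt-Nd6* and 0.47 for *mt-Nd5*, whereas *mt-Co1*, *mt-Co2*, *mt-Co3*, *mt-Cytb*, *mt-Atp6*, *mt-Nd4* and *mt-Nd4l* did not pass. With the 3 libraries left out, *mt-Nd3* and *mt-Atp8* no longer passed (adjusted p = 0.085 and 0.11), and *mt-Nd4l* did (0.042).

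Among the tRNAs, *mt-Tq* (adjusted p = 0.0019) and *mt-Tp* (adjusted p = 0.0028) passed. *mt-Tp* was highest in replicate 3 and lowest in replicate 5, or in replicate 6 with the 3 libraries left out. Its part of the tRNA counts was 68.2% to 71.2% in replicates 3 and 4 and 58.0% to 67.3% in replicates 5 and 6. How many other genes or ratios separate in this way is not given, and 54.7% of all genes passed the joint test. What the replicate numbers stand for is not stated.

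The nuclear genes that serve the mitochondrial genome were read beside its transcripts. Of 99 listed genes for the transcription, processing, translation and upkeep of mitochondrial DNA, 98 were tested. Under isoproterenol and without the replicate block, 1 was called and 5 had an adjusted p under 0.05. These stand beside 2.65% and 4.49% of all genes, so neither count sets the list apart in that fit. *Ppargc1a*, a coactivator of mitochondrial biogenesis, rose by 0.71 in log2 units (SE 0.15, adjusted p = 0.013). *Fastkd2*, an RNA-binding protein of mitochondrial RNA granules, and *Trnt1*, which adds the CCA end to tRNAs, rose by 0.29 and 0.22. *Mgme1*, a mitochondrial exonuclease, and *Hsd17b10*, a subunit of the enzyme that cuts the 5′ ends of tRNAs, fell by 0.37 and 0.47. *Tfam*, which packages mitochondrial DNA and starts its transcription, had 0.05 (SE 0.07), the mitochondrial RNA polymerase *Polrmt* -0.13 (SE 0.15) and *Lrpprc*, which stabilises mitochondrial mRNAs, 0.14 (SE 0.08). The median of the 98 was -0.01.

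Of the 79 nuclear subunits that assemble with the mitochondrially encoded ones, or form complex II, none was called under isoproterenol in edgeR, 8 had an unadjusted p under 0.05, beside 17.7% of all genes, and the median was -0.11. With the replicate block 22 of the 79 fell at an adjusted p under 0.05 and none rose, while 10.4% of all genes fell by that rule. Of the complex I genes 14 of 36 fell, of complex III 4 of 9, of the ATP synthase 3 of 17, of complex II 1 of 4 and of complex IV 0 of 13, each by less than the fold bound. In the same fit, none of the 13 mitochondrial mRNAs had an adjusted p under 0.05 and their median was 0.01. The difference between the nuclear and the mitochondrial subunits was not tested. Under sgRNA no gene of either nuclear list had an adjusted p under 0.05 in edgeR with or without the block.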

How the data were processed

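RNA of 16 libraries in 4 groups of 4 was read from 1 table of estimated counts per gene, deposited by the authors as whole numbers that were not normalized. Per the study's methods and labels, reads were demultiplexed with bcl2fastq, trimmed with cutadapt and quantified with salmon on the GENCODE M22 transcriptome of GRCm38. Versions and strand use are not given in the sources used here, and salmon divides reads that fit several transcripts. Groups came from the sample titles. Coordinates, lengths and sequences came from GENCODE M21 of the same build, which names 54094 of the 54347 genes.

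Tests used R 4.3.3 and edgeR 4.0.16. The counts were filtered by filterByExpr (minimum count 10, minimum total 15), which left 13150 genes, scaled by TMM and fitted by glmQLFit with 4 group means over all 16 libraries. Contrasts were tested two-sided by glmQLFTest with Benjamini-Hochberg adjustment over all genes tested. DESeq2 1.42.0, the study's tool, served as an alternative, as did other scaling, no filter, the replicate block, a covariate, other totals and left-out libraries. Sums over members were not tested. On simulated data with 12970 genes, the isoproterenol test recovered 85% of 100 genes changed by 1 on the log2 scale and 99% of 100 changed by 2, with 6 false calls. The simulated libraries had no replicate differences and none rich in *CT010467.1*. Changes smaller than 1 were not simulated, so these rates do not measure power for the smaller estimates of the members.

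Deviations from group means correlated at 0.224 to 0.613 (median 0.41) between libraries of the same replicate number, in all 24 pairs, and at a median of -0.215 between different numbers. The numbers, taken from the titles, therefore pair the libraries. The main calls carry no block. Beside the counts of calls over all genes, values with the replicate block are given for isoproterenol and for sgRNA averaged over treatments. The members and gene lists were chosen with earlier results of these data known. All protein and rRNA genes are named, as are *Ppargc1a*, *Tfam*, *Polrmt* and *Lrpprc* and the called genes of the nuclear lists with the largest effects, of which *Ppargc1a* was the only one under isoproterenol without the block. *Fastkd2*, *Trnt1*, *Mgme1*, *Hsd17b10* and the named RNAs without poly(A) tails were chosen after their values were seen. Copies were nuclear genes at least 85% identical over 100 or more bases. Total counts limit precision, and intervals come from the fitted spread.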

Additional observations from a re-analysis of the deposited data

Results flagged for a closer look

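The 28 members that passed the filter on low counts, the 3 class shares and the shares that the nuclear copies took of *mt-Nd3* and *mt-Atp6* were examined within each group of 4 libraries, 132 groups of values in all, for a library whose gap to the nearest other exceeded 0.829 of the group's range (Dixon's test). Chance alone marks about 1 in 20 such groups, and 7 were marked. Of these, 5 lay in replicate 3. In empty vector control cells *mt-Tq* stood at 2.14 CPM in replicate 3 and at 0.374 to 0.482 in the other libraries, and in sgRNA control cells at 0.982 in replicate 3 and 0.207 to 0.327 in the others, on counts of 27 or fewer. In empty vector stimulated cells, replicate 3, a library with 41.6% of counts on *CT010467.1*, was high for *mt-Co2* (19791 CPM against 12000.1 to 13260.0), *mt-Atp8* (701 against 323 to 387) and *mt-Nd4* (11071 against 7436 to 7913). In empty vector control cells replicate 5, another library rich in *CT010467.1*, had 2.89 CPM of *mt-Th* against 4.91 to 5.31 in the others. In sgRNA stimulated cells replicate 4 had 10.2 CPM of *mt-Tt* against 7.17 to 7.47. No member had an interaction of sgRNA and isoproterenol that passed the edgeR test.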

How the results depend on the processing

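No member was called in any of the 7 contrasts of group means under any alternative run, and the replicate block changed no member's call. Under isoproterenol, all genes called numbered 349 by edgeR, 749 with the replicate block, 730 with the block and the *CT010467.1* covariate, 159 against the total of mitochondrial mRNA counts, and 120 (without replicate 3) to 465 (without empty vector stimulated replicate 5) when a library or replicate number was left out. Under sgRNA they numbered 0 by edgeR, 35 with the replicate block, 14 with block and covariate, 10 without the filter, 10 by DESeq2, 1 against the mitochondrial mRNA total, and 0 to 2 with a library or number left out. In alternatives chosen after seeing the data, leaving out the 3 libraries rich in *CT010467.1* gave 1 sgRNA call, and 635 and 24 calls for isoproterenol and sgRNA with the replicate block. Adding the nuclear copies with the block gave 748 and 35. Within empty vector and sgRNA cells, the 109 and 92 isoproterenol calls became 223 and 178 by DESeq2, 37 and 32 against the mitochondrial mRNA total, 567 and 538 with block and covariate, and 35 to 181 and 29 to 98 with a library or number left out, the lowest of both without replicate 4 and the highest of both without empty vector control replicate 6.

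The sgRNA estimates of *mt-Rnr1* and *mt-Rnr2* reversed to 0.18 and 0.21 with the block and the *CT010467.1* covariate, and ran from -1.26 to -0.65 and from -1.14 to -0.57 with a library or number left out. The cause was not tested. Other estimates that changed sign had main intervals that include 0, for example 10 of 28 members under sgRNA with block and covariate. The joint test of replicate numbers passed 10 of 28 members (54.7% of all genes), 4 of 28 without replicate 4 (46% of all genes) and 11 of 27 without replicate 3 (54.5%). It passed 10 of 29 without replicate 5 (42%) and 8 of 29 without replicate 6 (29.1%).

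As shares of all counts, the mitochondrial mRNAs made up 7.47%, 6.80%, 9.42% and 9.41% in empty vector control, empty vector stimulated, sgRNA control and sgRNA stimulated cells, and the tRNAs 0.00793%, 0.00797%, 0.00901% and 0.0105%. The median levels of *mt-Nd3* and *mt-Atp6* were 2740 and 17248 CPM per kilobase with their copies added. Depth limits the 9 tRNAs that did not pass the filter.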
